A study of Mus musculus with 17 samples.

Results

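Glucocorticoids (corticosterone in mice) enter cells and bind the glucocorticoid receptor, which leaves its Hsp90 chaperone complex, moves to the nucleus and raises the transcription of a set of target genes. Several of these targets act as feedback: they restrain the receptor itself, NF-kB signalling, growth factor receptors or mTORC1. In the brain the same targets are used as a readout of circulating hormone, and many of them also answer to other inputs, such as the circadian clock, neuronal activity or p53. The genes described here are 10 known targets chosen by name, and all 10 of them were found among the 55453 gene symbols of the table. Their expression was compared mouse by mouse over all 6 groups of the study.

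RNA was measured in bulk cortex of 17 male C57BL/6J mice, to ask how loss or substitution of hnRNPH2, an X-linked RNA-binding protein, alters expression. Hemizygous Hnrnph2 KO mice (a frameshifting indel followed by nonsense-mediated decay) and hemizygous R206W knockin mice were taken at 8 weeks, with 3 mice each and 3 wild-type littermates for each line. Hemizygous P209L knockin mice were taken at 3 weeks, with 3 mutants and 2 wild-type littermates analysed here. The alleles are germline changes present in all cells, and line and age are the same split for the P209L line, so that they cannot be told apart. The values are TPM, the share of a transcript among 1000000 transcripts after correction for its length. The number of reads behind each library is therefore unknown, and the spread between mice is the measure of error used below.

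Hnrnph2 itself was at 21.3 to 24.4 TPM in the 3 KO mice and at 80.5 to 145 TPM in their 3 controls. The labelled tissue was borne out by markers of cortical excitatory neurons, whose summed level was 1233 to 2650 TPM, with none of the 6 at 0 in any mouse. A pair of libraries stood apart. KO control 1 had 20.1% of its TPM in mitochondrial genes, against 10.7% to 15.4% in the others, and a median-of-ratios size factor of 0.792, which means that its typical nuclear transcript read low. P209L control 2 carried choroid plexus transcripts, with a summed marker level of 1776 TPM against at most 27.9 TPM in every other mouse. For the counts and medians of the members that rest on these mice, values without them are given as well, and the values of single genes are from all mice unless stated.

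All 10 genes passed the filter of a mean of at least 1 TPM and were well expressed. Averaged over the 17 mice, the level ran from 17.001 TPM for Sult1a1, a phenol sulfotransferase, to 95.8 TPM for Tsc22d3, which encodes the anti-inflammatory leucine zipper protein GILZ. Between these were Sgk1, a kinase that regulates ion channels and transporters, at 68.6 TPM and Per1, a repressor of the circadian clock, at 58.1 TPM. Ddit4, which encodes the mTORC1 inhibitor REDD1, averaged 39.4 TPM, and Cdkn1a, the cyclin-dependent kinase inhibitor p21 and a classical p53 target, 27.1 TPM. Nfkbia, the inhibitor that holds NF-kB in the cytoplasm, averaged 25.6 TPM and Zbtb16, a zinc-finger transcriptional repressor, 25.3 TPM. Fkbp5, an Hsp90 co-chaperone that lowers the receptor's affinity for hormone, averaged 19.6 TPM, and Errfi1, a feedback inhibitor of the EGF receptor, 18.3 TPM.

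The members are protein-coding genes spread over 8 chromosomes (GRCm38, GENCODE M21). Fkbp5 (chr17:28399094-28517527, minus strand) and Cdkn1a (chr17:29090976-29100727, plus strand) lie on the same chromosome, as do Sgk1 (chr10:21882184-21999903, plus) and Ddit4 (chr10:59949669-59951834, minus). Tsc22d3 (chrX:140539528-140600659, minus) is X-linked like Hnrnph2. The others are Per1 (chr11:69095217-69109960, plus), Zbtb16 (chr9:48654297-48836222, minus), Nfkbia (chr12:55489410-55492647, minus), Sult1a1 (chr7:126672865-126676432, minus) and Errfi1 (chr4:150853919-150868892, plus). Their TPM are gene-level values, so that exons and isoforms were not separated.

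The receptor binds DNA as a dimer, and its full element is a palindrome of a pair of AGAACA half-sites spaced by 3 bases. The promoters below show which of these letters lie next to the start sites of genes that varied together across 8-week mice (Sgk1, Tsc22d3 and Per1). Sult1a1 is shown as the member whose median r with the others was low over all mice of that age. Windows of 300 bases around RefSeq start sites (GRCm38.p6) were searched on both strands, and 9 members had at least 1 window. Sgk1 had 6 windows, Tsc22d3 had 3, Per1, Cdkn1a and Errfi1 had 2 each, and the others had 1. A gene with more windows has more places for a match, so the shares by gene do not compare like with like. The half-site AGAACA lay in a window of 3 of these 9 members, Sgk1, Tsc22d3 and Sult1a1, and in a window of 21.3% of all 27025 genes (19.0% of 32851 windows). The full palindrome (AGAACA, any 3 bases, then TGTTCT) lay in 3 of the 32851 windows, 1 of which belongs to Sgk1. The E-box CACGTG, the element bound by the clock's CLOCK and BMAL1, lay in windows of Fkbp5, Sgk1 and Per1 and of 8.09% of all genes (7.15% of windows). The cAMP response element TGACGTCA lay in 1 window of Errfi1 and in a window of 2.03% of all genes (1.79% of windows). Sequences run 5′ to 3′ on the gene's strand, and capitals mark these motifs.
Sgk1, chr10:21993640-21993939, plus strand: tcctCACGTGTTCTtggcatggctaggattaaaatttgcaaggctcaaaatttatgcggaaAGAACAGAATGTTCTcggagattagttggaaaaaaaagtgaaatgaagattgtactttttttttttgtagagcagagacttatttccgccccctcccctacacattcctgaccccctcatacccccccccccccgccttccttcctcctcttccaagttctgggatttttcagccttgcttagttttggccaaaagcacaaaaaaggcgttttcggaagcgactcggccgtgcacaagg
Tsc22d3, chrX:140600473-140600772, minus strand: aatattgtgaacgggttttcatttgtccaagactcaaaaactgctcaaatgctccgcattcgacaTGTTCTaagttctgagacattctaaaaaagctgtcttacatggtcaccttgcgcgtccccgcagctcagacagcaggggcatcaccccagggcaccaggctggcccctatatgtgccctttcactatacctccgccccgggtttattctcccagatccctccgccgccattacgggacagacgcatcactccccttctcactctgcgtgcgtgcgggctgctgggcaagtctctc
Sult1a1, chr7:126676369-126676668, minus strand: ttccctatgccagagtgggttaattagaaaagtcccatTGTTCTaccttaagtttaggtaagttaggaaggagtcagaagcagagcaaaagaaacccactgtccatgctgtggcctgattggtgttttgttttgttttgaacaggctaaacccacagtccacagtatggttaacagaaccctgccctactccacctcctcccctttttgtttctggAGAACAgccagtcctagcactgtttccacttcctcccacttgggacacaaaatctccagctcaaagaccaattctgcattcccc
Per1, chr11:69098699-69098998, plus strand: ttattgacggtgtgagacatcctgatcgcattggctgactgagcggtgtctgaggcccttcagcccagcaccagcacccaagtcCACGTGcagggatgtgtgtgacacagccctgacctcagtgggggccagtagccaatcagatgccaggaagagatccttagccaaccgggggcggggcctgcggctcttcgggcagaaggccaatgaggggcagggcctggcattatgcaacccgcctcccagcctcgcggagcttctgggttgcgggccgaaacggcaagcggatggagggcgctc
In the Sgk1 window the palindrome begins 189 bases before the start site, and an E-box 246 bases before it overlaps a further half-site. The Tsc22d3 half-site begins 185 bases before the start, those of Sult1a1 begin 212 and 34 bases before it, and the Per1 E-box begins 166 bases before it. The windows printed all hold a motif, while the other windows of Tsc22d3 and Per1 and some of those of Sgk1 hold none. These matches are descriptions of letters in a short window, and distant enhancers were not searched.

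Across the 6 groups the members did not share a single order. Sgk1 was highest in the R206W controls (105 ± 6.09 TPM, SD, n = 3), followed by R206W mice (87.3 ± 9.20, n = 3), KO controls (68.1 ± 19.8, n = 3), KO mice (62.2 ± 20.7, n = 3), P209L controls (40.3 ± 1.53, n = 2) and P209L mice (39.6 ± 6.17, n = 3). In this order the R206W controls did not overlap the R206W mice. The R206W mice and the KO controls overlapped, as did the KO controls and KO mice and both 3-week groups, while all 5 mice of 3 weeks lay below every 8-week mouse, by a narrow margin over KO 1. Zbtb16 ran from 36.3 ± 5.41 TPM in the R206W controls through 32.7 ± 13.3 in KO controls, 32.2 ± 10.2 in R206W mice and 25.2 ± 12.7 in KO mice to 11.04 ± 2.02 in P209L mice and 8.89 ± 2.51 in P209L controls. Its 4 groups of 8 weeks overlapped one another, and all 5 mice of 3 weeks lay below all 12 mice of 8 weeks, as was so for 10.2% of all genes. Sult1a1 had the reverse order of age, at 23.1 ± 0.629 TPM in P209L controls and 25.7 ± 13.6 in P209L mice, against 11.8 ± 0.953 to 16.7 ± 3.11 in the 8-week groups.

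**Figure D1:**
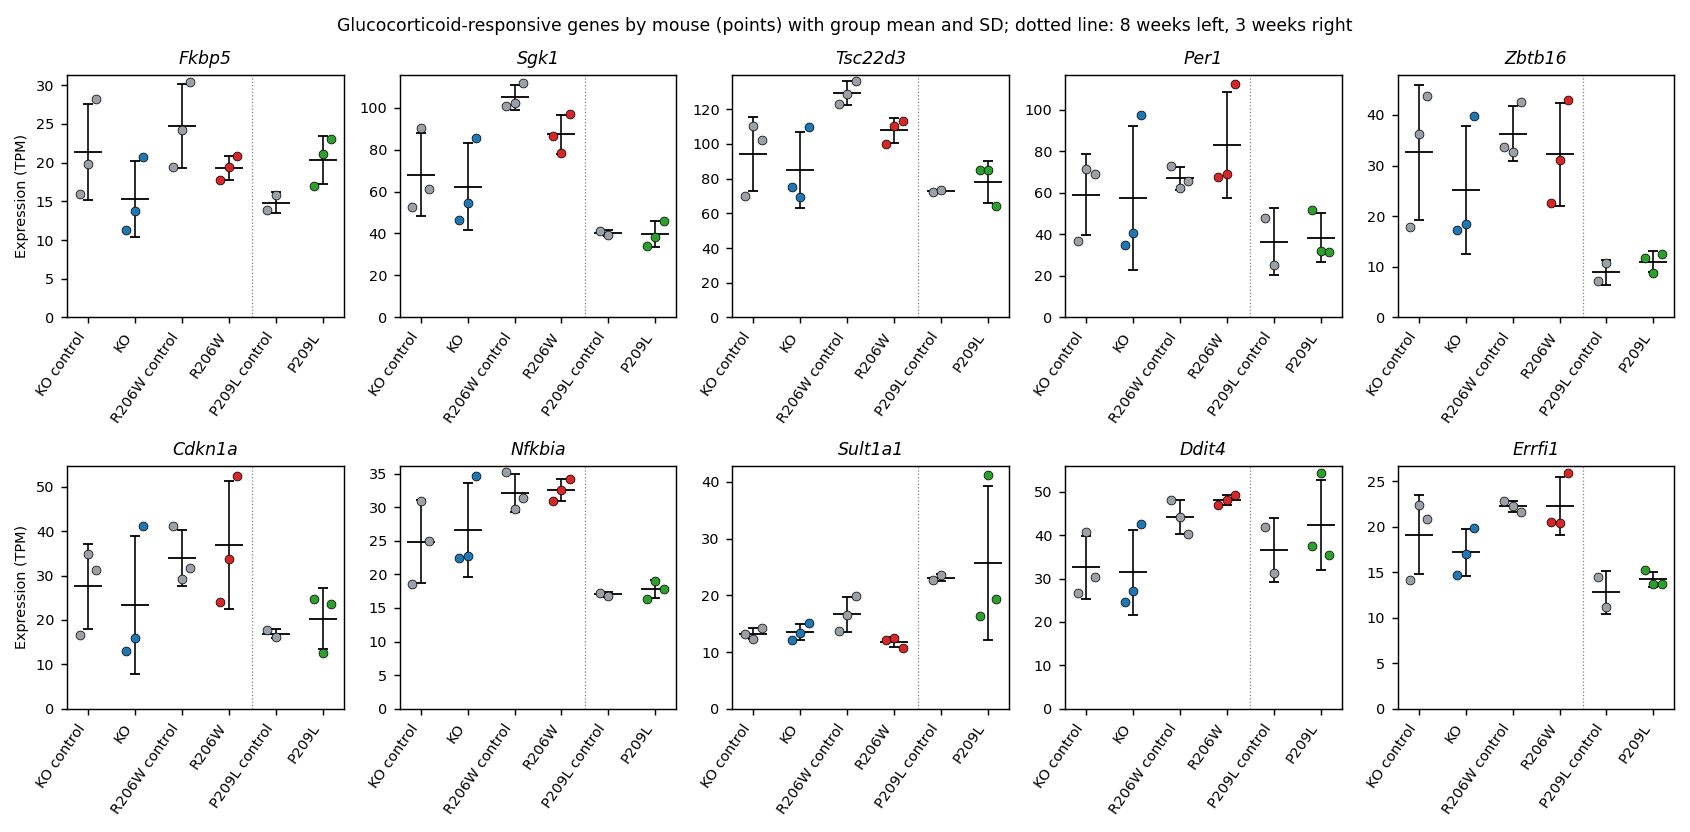
Expression in TPM of each of the 10 genes in every mouse. Points are mice (from the left, replicate 1 onward), horizontal lines are group means, bars are 1 SD and the dotted line separates groups of 8 weeks from those of 3 weeks. Sgk1 and Zbtb16 sit lower in all 5 mice of 3 weeks than in the 12 mice of 8 weeks, and in the KO group 1 mouse of 3 sits above the others for most genes.

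The first question was whether loss of Hnrnph2 altered these genes at 8 weeks. No member passed the threshold of an adjusted p of 0.05 between KO mice and KO controls (limma's moderated test, Benjamini-Hochberg over 16265 genes), where 0.00615% of all genes did. None had an unadjusted p under 0.05 either, beside 4.08% of all genes. Of the 10 differences, 8 were below 0 and 2 above, with a median of -0.14 on the log2(TPM + 1) scale, beside 32.5% of all genes below 0 and a median of 0.06 over all genes.

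Fkbp5 had the smallest p of the KO comparison. It was at 11.3, 13.8 and 20.7 TPM in KO mice 1, 2 and 3 and at 15.99, 19.8 and 28.2 TPM in KO controls 1, 2 and 3. KO mice 1 and 2 lay below all 3 controls and KO 3 lay among them, so that the groups overlapped. The difference was -0.46 (SE 0.219, 95% interval -0.93 to 0.0034, limma adjusted p = 0.999).

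Zbtb16, Cdkn1a and Per1 had wider intervals, with 1 KO mouse among the higher controls and 1 control among the lower KO mice. Zbtb16 was at 17.3, 18.5 and 39.8 TPM in KO mice 1 to 3 and at 17.9, 36.3 and 43.8 TPM in the controls. The low KO control 1 fell beside KO mice 1 and 2, and KO 3 fell beside the other two controls. The difference was -0.37 (95% interval -1.08 to 0.33).

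Cdkn1a showed the same arrangement, at 12.9, 15.8 and 41.3 TPM in KO mice against 16.7, 34.9 and 31.2 TPM in controls, with a difference of -0.35 (-1.17 to 0.47). Per1 was at 34.7, 40.5 and 97.7 TPM in KO mice and at 36.7, 71.5 and 69.1 TPM in controls, with a difference of -0.13 (-0.90 to 0.64). For both genes KO 3 was the highest of the 6 mice of the line, and KO 1 was the lowest. The groups overlapped for all 10 members in this line, where 6.25% of all genes did not overlap.

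The remaining KO differences were small against their intervals. They were -0.15 for Tsc22d3 (-0.53 to 0.23), -0.14 for Sgk1 (-0.58 to 0.30), -0.13 for Errfi1 (-0.47 to 0.21) and -0.07 for Ddit4 (-0.50 to 0.37). Nfkbia differed by 0.09 (-0.27 to 0.46) and Sult1a1 by 0.02 (-0.48 to 0.53). Without KO control 1 the members' median was -0.33 with 1 above 0, and without KO 3 it was -0.37 with none above 0. Without KO 1 it was 0.0063 with 5 above 0, and no member was called in any of these fits. At an unadjusted p under 0.05 (limma) there were 3 members without KO control 1, beside 1706 of 16285 genes. There were also 3 without KO 3, beside 559 of 16251 genes, and 0 without KO 1, beside 550 of 16271. A fit with sample weights, in which libraries that deviate more from their group count for less, gave KO control 1 a weight of 0.0818 and KO 3 a weight of 0.236, against 0.774 to 4.05 for the other mice of the line. In that fit 9 members, all but Sult1a1, were called lower in KO mice, beside 1641 of 16265 genes called lower.

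The second question was whether the R206W substitution altered these genes at the same age. No member was called between R206W mice and their controls, where 0.0369% of all genes were, and none had an unadjusted p under 0.05, beside 2.19% of all genes. The differences had a median of -0.10, beside 0.01 over all genes, with 6 below 0, beside 46.8% of all genes, and 4 above. Sgk1, Tsc22d3 and Sult1a1 were lower in every R206W mouse than in every R206W control, as were 8.11% of all genes.

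Tsc22d3 was at 99.9, 110 and 113 TPM in R206W mice and at 123, 129 and 136 TPM in their controls. Sgk1 was at 86.6, 78.4 and 96.8 TPM in R206W mice and at 101, 102 and 112 TPM in controls. Sult1a1 was at 12.1, 12.5 and 10.7 TPM in R206W mice and at 13.6, 16.5 and 19.8 TPM in controls. The gaps between the groups were narrow beside the ranges within them, and none of the 3 differences passed the test. They were -0.26 for Tsc22d3 (95% interval -0.64 to 0.12), -0.27 for Sgk1 (-0.71 to 0.18) and -0.46 for Sult1a1 (-0.96 to 0.05).

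Fkbp5 was at 17.7, 19.5 and 20.8 TPM in R206W mice and at 19.5, 24.3 and 30.4 TPM in controls. The lowest control lay level with the R206W mice, and the difference was -0.32 (-0.78 to 0.15). R206W 3 held the highest level of Per1 among all 17 mice, 112 TPM against 67.5 and 68.9 TPM in the other two, and also of Cdkn1a, 52.5 TPM against 24.2 and 33.7 TPM. The differences of the group were 0.27 for Per1 (-0.50 to 1.03) and 0.06 for Cdkn1a (-0.76 to 0.88). Those of Zbtb16, Ddit4, Nfkbia and Errfi1 lay between -0.20 and 0.12.

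The third question was the same for the P209L substitution at 3 weeks. No member was called between P209L mice and their controls, where 0.0984% of all genes were, and none had an unadjusted p under 0.05, beside 7.46% of all genes. Of the members, 9 of the 10 differences were above 0 with a median of 0.13, beside 53.5% of all genes above 0 and a median of 0.02. Fkbp5 was at 16.97, 21.1 and 22.99 TPM in P209L mice and at 13.9 and 15.8 TPM in controls. It was the only member whose groups did not overlap, as was so for 14.2% of all genes in the higher direction. The difference was 0.42 (SE 0.245, 95% interval -0.10 to 0.94, limma adjusted p = 0.776).

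The other members overlapped between P209L mice and controls. Zbtb16 was at 11.8, 8.76 and 12.6 TPM in mutants and at 7.11 and 10.7 TPM in controls, a difference of 0.29 (-0.49 to 1.08). Sult1a1 reached 41.3 TPM in P209L 2, against 16.4 and 19.4 TPM in the other mutants and 22.7 and 23.6 TPM in controls. This single mouse made the SD of the group 13.6 TPM, and the difference was 0.03 (-0.53 to 0.59). P209L 2 also had the highest Ddit4 of all mice, 54.4 TPM against 37.5 and 35.5 TPM in the other mutants and 41.9 and 31.3 TPM in controls. Without P209L control 2 the members' median was 0.05 with 6 above 0, and no member was called. The summed level of 8 oligodendrocyte markers was 2557 to 3653 TPM in P209L mice and 4229 to 6318 TPM in their controls, with none called, and 2 of 4 tested skeletal muscle markers were called lower. The part of these in the members' values was not tested.

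**Figure D2:**
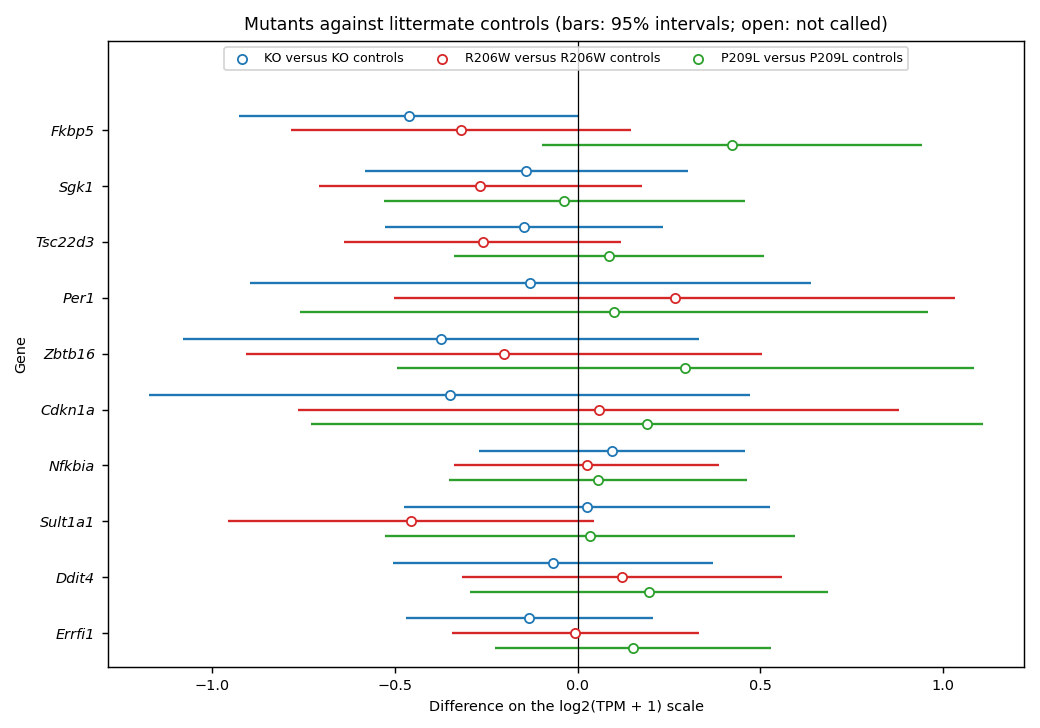
Difference between mutants and littermate controls for each gene on the log2(TPM + 1) scale, with 95% intervals from limma. Open circles are differences that were not called, which is every one of them, and Fkbp5 lies at -0.46, -0.32 and 0.42 in the KO, R206W and P209L lines.

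Whether the 3 alleles differed in their effect was tested with contrasts of the effects themselves. In limma, no member was called for the KO effect minus the R206W effect (0.0307% of all genes were), for the KO effect minus the P209L effect (0.0492%) or for the R206W effect minus the P209L effect (0.0% of all genes). Fkbp5 was the only member with an unadjusted p under 0.05, in both contrasts that involve P209L, beside 7.98% and 3.98% of all genes, and no member had one in the contrast of KO and R206W. Its KO effect lay 0.88 below its P209L effect (difference -0.88, 95% interval -1.58 to -0.19, unadjusted p = 0.0163 and adjusted p = 0.504 in limma). Its R206W effect lay below by a like amount, with a difference of -0.74 (-1.44 to -0.04, unadjusted p = 0.0388 and adjusted p = 1.00 in limma). These contrasts share the P209L mice and set lines of different ages against each other. No member was called for the KO effect minus the P209L effect without KO control 1 or without P209L control 2 either, and the members' median was -0.45 and -0.088, against -0.25 with all mice. The Fkbp5 effects in the KO and R206W lines differed by -0.14 (-0.80 to 0.52).

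Among wild-type mice the members differed between ages, and these differences are given as 3 weeks minus 8 weeks. In the 2 P209L controls of 3 weeks, 5 of the 10 members were lower than in the 6 controls of 8 weeks at an adjusted p of 0.05 (limma) and none was higher. Over all genes 24.8% were called lower and 36.1% in either direction. The members' median was -0.67, beside -0.12 over all genes, and 9 of 10 lay below 0, beside 60.5% of all genes. In bulk tissue a lower value can come from fewer cells of a type or from less RNA per cell, which cannot be told apart.

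Zbtb16 differed by the most. It was at 7.11 and 10.7 TPM in the controls of 3 weeks and at 17.9 to 43.8 TPM, with a median of 34.9 TPM, in those of 8 weeks. No control of 3 weeks reached the lowest control of 8 weeks. The fitted difference was -1.81 (SE 0.332, 95% interval -2.52 to -1.11, limma adjusted p = 0.000867), a ratio of 0.284 on the TPM + 1 scale.

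Sgk1 was lower at 3 weeks, with a difference of -1.03 on the log2 scale (SE 0.208, limma adjusted p = 0.00165). Its 2 controls of 3 weeks were at 41.4 and 39.2 TPM, and the 6 of 8 weeks ran from 52.9 to 112 TPM with a median of 95.6 TPM. These groups did not overlap, and the 3 P209L mice, at 34.0, 38.5 and 46.2 TPM, lay below the controls of 8 weeks as well.

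Nfkbia and Errfi1, a pair of feedback inhibitors, were lower at 3 weeks by similar amounts. Nfkbia was at 17.3 and 16.8 TPM at 3 weeks and at 18.6 to 35.2 TPM (median 30.3) at 8 weeks, a difference of -0.68 (SE 0.171, limma adjusted p = 0.00651). The lowest of the older controls was KO control 1, which lay close to the younger mice. Errfi1 was at 14.5 and 11.1 TPM at 3 weeks and at 14.2 to 22.8 TPM (median 21.955) at 8 weeks, a difference of -0.65 (SE 0.159, limma adjusted p = 0.00575). Its groups overlapped only through KO control 1, the lowest of the older mice.

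Tsc22d3 was at 72.5 and 73.2 TPM at 3 weeks and at 69.9 to 136 TPM (median 116) at 8 weeks, a difference of -0.58 (SE 0.179, limma adjusted p = 0.0203). Here too KO control 1 was the single older control below the younger ones. Of the members that were not called, Fkbp5 differed by -0.57 (adjusted p = 0.0531), Per1 by -0.81 (adjusted p = 0.0932) and Cdkn1a by -0.78 (adjusted p = 0.127) in limma. Fkbp5 did not overlap between the ages, with 13.9 and 15.82 TPM against 15.99 to 30.4 TPM, while Per1 and Cdkn1a did. Ddit4 lay level, at -0.05 (95% interval -0.49 to 0.38).

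Sult1a1 was the one member with a positive difference. It was at 22.7 and 23.6 TPM in the controls of 3 weeks and at 12.3 to 19.8 TPM in those of 8 weeks. The groups did not overlap, but the difference of 0.61 missed the threshold (95% interval 0.11 to 1.11, limma adjusted p = 0.0538). It passed in 10 of 20 alternative fits, so that the absence of a member called higher depends on the processing. Counted over all 10 members, the controls of 3 and 8 weeks did not overlap for 4 in the lower direction (Fkbp5, Sgk1, Zbtb16 and Nfkbia), beside 21.5% of all genes, and for Sult1a1 in the higher direction, beside 16.7%.

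The count of 5 changed when single libraries were left out, as did the count over all genes, which was 5876 of 16265 with all mice. Without KO control 1 there were 7 members called, all lower, and 8186 of 16285 genes. Without P209L control 1 there were 3 members and 2977 of 16282 genes. Without P209L control 2, the mouse with choroid plexus transcripts, there were 2 members, Zbtb16 and Sgk1, and 2715 of 16257 genes. Markers of other cell types moved with the same comparison: all 5 blood markers and 6 of 8 oligodendrocyte markers were called higher at 3 weeks, and 4 of 6 excitatory neuron markers and 3 of 6 astrocyte markers lower. Microglia (1 higher and 3 lower of 6) and endothelial markers (1 higher and 2 lower of 8) were mixed. The summed oligodendrocyte level was 4229 to 6318 TPM in the P209L controls and 2688 to 3768 TPM in the controls of 8 weeks. The summed blood level was 1905 to 4884 TPM in 3-week mice and 560 to 1323 TPM in 8-week mice, and the summed astrocyte level was 441 to 599 TPM in the P209L controls and 541 to 741 TPM in the controls of 8 weeks. Their part in the members' differences was not tested.

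**Figure D3:**
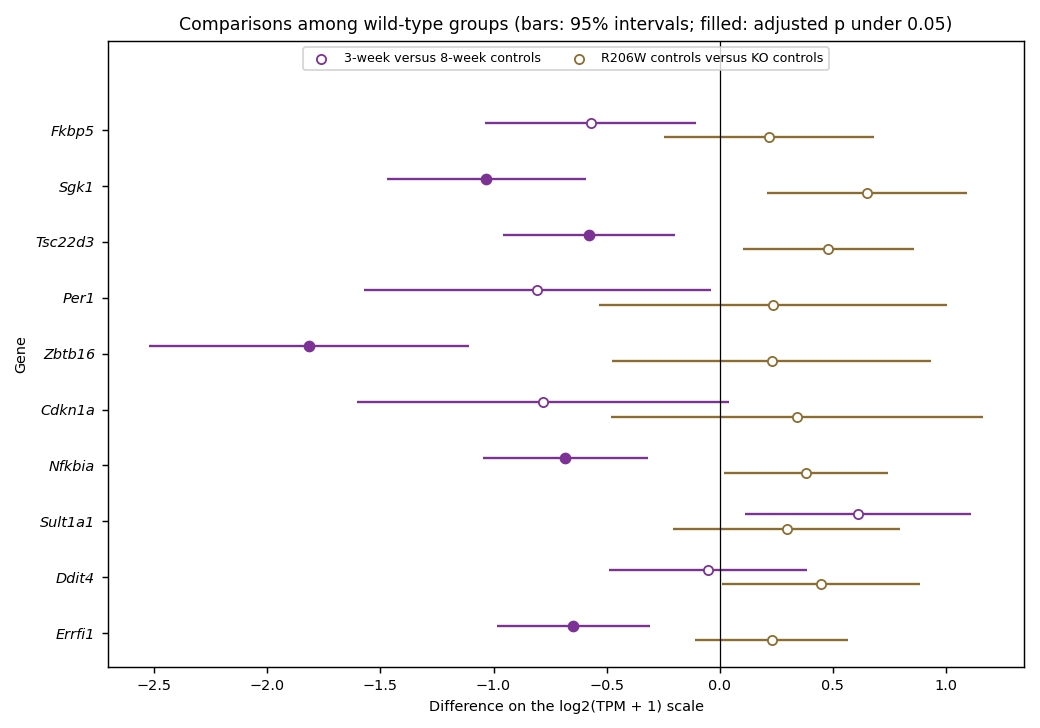
Differences among wild-type groups for each gene on the log2(TPM + 1) scale with 95% intervals from limma: controls of 3 weeks minus controls of 8 weeks, and R206W controls minus KO controls. Filled circles were called, which are Sgk1, Tsc22d3, Zbtb16, Nfkbia and Errfi1 in the age comparison, and all 10 differences between the 8-week control groups lie above 0 with open circles.

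The wild-type littermates of the R206W and KO lines, both of 8 weeks, gave a check of how far these genes vary without any mutation. No member was called between them, and neither was any other gene (0.0% of all genes). At an unadjusted p under 0.05 there were 4 members, beside 3.12% of all genes. All 10 members were higher in the R206W controls, as were 83.9% of all genes, with a median of 0.32 beside 0.13 over all genes. Sgk1, at 101, 102 and 112 TPM against 52.9, 90.5 and 61.0 TPM, and Tsc22d3, at 123, 129 and 136 TPM against 69.9, 110 and 102 TPM, did not overlap between the control groups. In the higher direction this was so for 8.43% of all genes.

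The difference was 0.65 for Sgk1 (95% interval 0.21 to 1.09, unadjusted p = 0.00659 and adjusted p = 0.784 in limma) and 0.48 for Tsc22d3 (0.10 to 0.86). It was 0.45 for Ddit4 (0.01 to 0.89) and 0.38 for Nfkbia (0.02 to 0.74). After scaling by size factors the members' median was 0.18 beside -0.0020 over all genes. Without KO control 1 it was 0.12 with 8 members above 0, and without KO control 1 as with all mice no member was called. At an unadjusted p under 0.05 (limma) there were 2 members with size factors, beside 285 of 16265 genes. Without KO control 1 there was 1 member, beside 309 of 16285 genes. The R206W controls are also the reference for the R206W mice, in which Sgk1 and Tsc22d3 lay below their controls, so that these comparisons share samples.

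Within a group, the members varied more than most genes. The residual SD of log2(TPM + 1) was 0.552 for Cdkn1a, 0.514 for Per1 and 0.470 for Zbtb16, above that of 97.9%, 97.6% and 97.2% of tested genes, whose median was 0.193. It was 0.324 for Sult1a1, 0.299 for Fkbp5, 0.282 for Sgk1 and 0.279 for Ddit4. Tsc22d3 (0.237), Nfkbia (0.224) and Errfi1 (0.203) were the steadiest, with Errfi1 above 56.0% of genes.

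Each mouse was then set against the median of the mice of its own age. In KO 1 all 10 members lay below that median, with a median deviation of -0.75 and a lowest value of -1.22 for Cdkn1a. In KO 2 there were 9 below, with a median of -0.62, and Sult1a1 lay level at 0.0096. In KO control 1 all 10 lay below, with a median of -0.67. The remaining 9 mice of 8 weeks had medians between -0.07 and 0.20, with R206W 3 the highest and KO 3 at 0.12, and the 5 mice of 3 weeks had medians between -0.07 and 0.07.

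The 3 low mice differed in what their other genes did. The median deviation of all tested genes was -0.35 in KO control 1, and after scaling by size factors its members stood at -0.25. In KO 1 and KO 2 the median of all genes was -0.05 in both, and after scaling the members were still at -0.67 and -0.54. These 3 mice also held the 3 highest shares of mitochondrial transcripts, 20.1% in KO control 1, 15.4% in KO 1 and 15.3% in KO 2, and the part of this in the members' deviation was not tested. Other gene groups moved with them to a different extent. The median deviation of 13 immediate-early genes, which report recent neuronal activity, was -0.85 in KO 1, -0.17 in KO 2 and -0.77 in KO control 1, and it was 0.56 in KO 3 and 0.98 in R206W 3, the mouse with the highest Per1 and Cdkn1a. Among 20 further glucocorticoid-induced genes it was -0.29, -0.21 and -0.33 in the 3 low mice and 0.30 in KO 3. The value of -0.33 belongs to KO control 1, whose median over all genes was -0.35 before scaling. For the 14 circadian genes, which include targets and partners of Per1, the median deviation was -0.19, -0.16 and -0.65 in the low mice, where Per1 was at 34.7, 40.5 and 36.7 TPM.

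**Figure D4:**
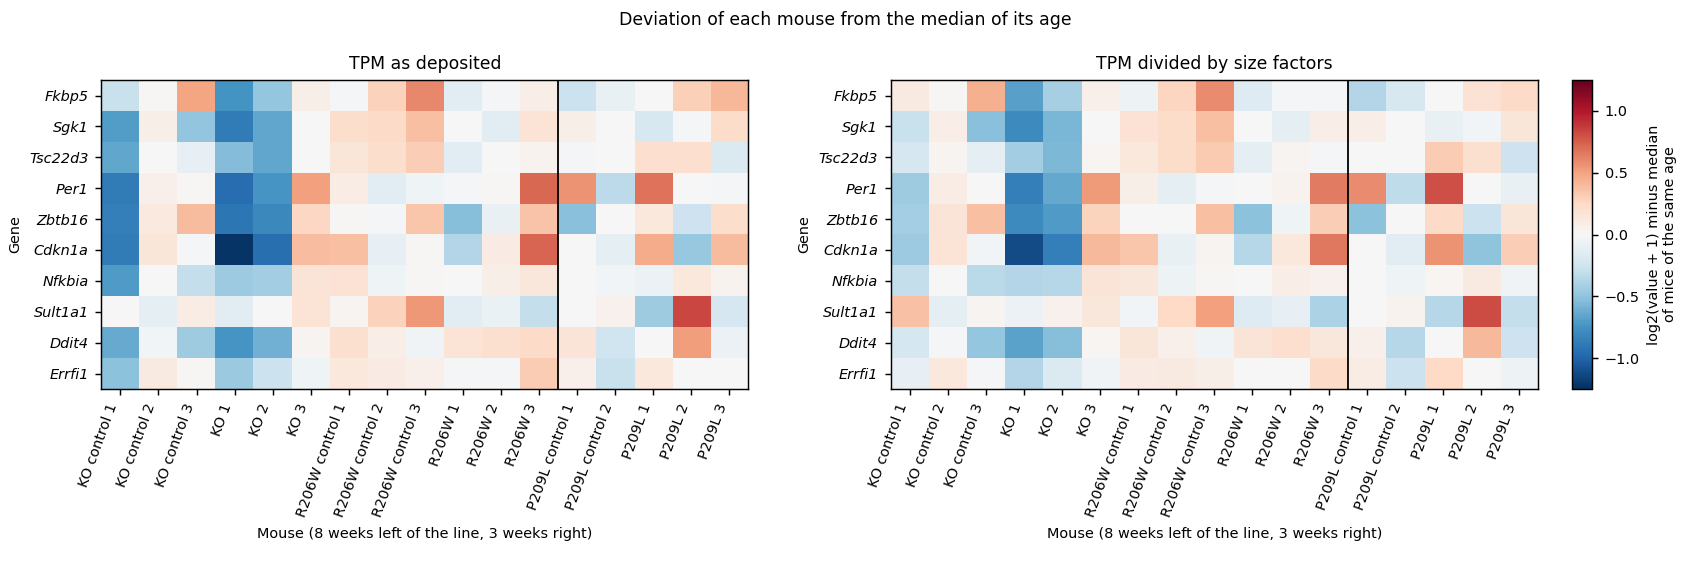
Deviation of each mouse from the median of the mice of its age, on the log2(value + 1) scale, for TPM as deposited (left) and for TPM divided by size factors (right). Blue is below and red above that median. KO 1, KO 2 and KO control 1 are blue for nearly every gene on the left with medians of -0.75, -0.62 and -0.67, and on the right KO control 1 is paler, with a median of -0.25.

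The members other than Sult1a1 varied together across 8-week mice. After removal of the group means, the 36 pairs among these 9 genes had a median Pearson's r of 0.850 over 12 mice (0.448 to 0.9746), where the median over pairs of all tested genes was 0.286. With size factors the median was 0.744, and that of all gene pairs was -0.00016. Without KO control 1 it was 0.811 over 11 mice, and that of all gene pairs was 0.0515. These values describe genes measured in the same libraries and rest on few mice. The split of Sult1a1 from the others comes from these same data, so it is a description and not a test.

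In the KO line the median r was 0.899 over 6 mice, where that of all gene pairs was 0.406, and without KO control 1 the values were 0.908 and 0.0492. In the R206W line the median was 0.497 over 6 mice, with a range from -0.823 to 0.972, where that of all gene pairs was 0.103. With size factors the members' medians were 0.836 in the KO line and 0.217 in the R206W line, beside 0.00065 and 0.00070 over all gene pairs. In the 3-week mice, 5 in number, the median was -0.10. The lines were not tested against each other. Over all 12 mice of 8 weeks Sult1a1 stood apart, with a median r of 0.132 in its 9 pairs, and its highest value was with Fkbp5, at 0.715. The lines differed in this: its median was 0.404 in the KO line, 0.649 there without KO control 1, and -0.527 in the R206W line. With size factors these medians were 0.0019, 0.486 and -0.481.

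Fkbp5, the member most tied to the receptor's own feedback, was tested against each of the others over the 12 mice of 8 weeks, by permuting mice within groups, with adjustment over the 9 pairs. Only the pair with Zbtb16 passed (Pearson's r = 0.862, permutation p = 0.00159, adjusted p = 0.0143, Spearman's rho = 0.867, adjusted p = 0.0276). Without the 2 mice farthest from the median of Fkbp5, KO 3 and KO control 3, r was 0.746, and within lines it was 0.932 in the KO line and 0.631 in the R206W line. The adjusted permutation p missed the threshold with size factors, where r was 0.753, and without KO 1, KO 2 or KO 3, where r was 0.844, 0.867 and 0.781. Groups of 3 mice allow few distinct permutations, and fewer still without 1 mouse. The permutation p can therefore rise where r does not fall, as without KO 2. Tsc22d3 followed with r = 0.762 (permutation, adjusted p = 0.130) and rho = 0.832 (permutation, adjusted p = 0.0490), and its r was 0.785 and 0.846 within the lines. For the other pairs r ran from 0.448 for Ddit4 to 0.725 for Per1, and Ddit4 had opposite signs in the KO line (0.648) and the R206W line (-0.823).

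**Figure D5:**
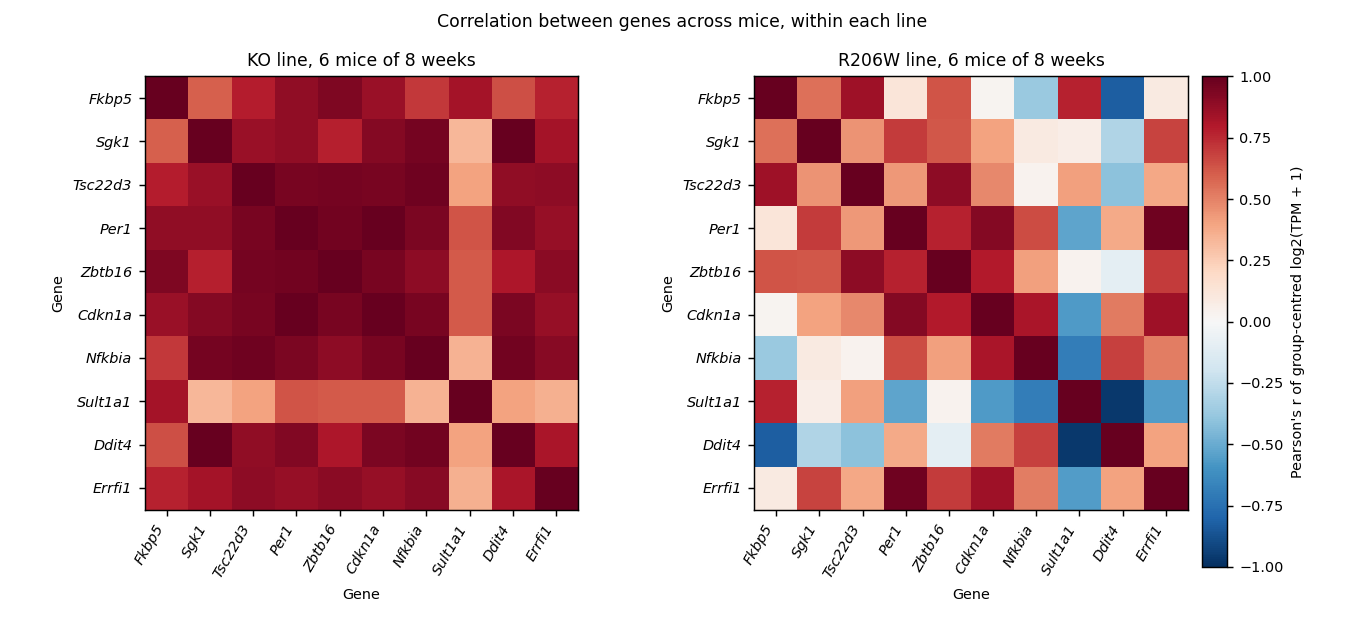
Pearson's r between each pair of the 10 genes over the 6 mice of the KO line (left) and the 6 mice of the R206W line (right), from log2(TPM + 1) after removal of the group means. The KO line is red throughout, with a median of 0.899 without Sult1a1, and the R206W line is mixed, with a median of 0.497 and blue cells for several pairs of Sult1a1 and Ddit4.

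The 5 genes whose group-centred profile over 17 mice was most like the mean of the members were Mnt, a repressor that pairs with MAX (r = 0.960), Ppp1r15a, a phosphatase subunit that reverses eIF2alpha phosphorylation (0.958), and Rps6ka2, a kinase of the RSK family (0.957). Egln2, an oxygen-sensing prolyl hydroxylase (0.948), and the growth factor receptor Fgfr1 (0.947) followed. With size factors r was 0.776 for Egln2 and 0.903 to 0.921 for the other 4 genes. Without the 2 mice farthest from the median of the members, KO 3 and KO control 1, the values were 0.873 to 0.915.

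The wider pathway was counted in the same comparisons. In limma, none of the 16 tested genes of receptor, ligand metabolism, chaperones and cofactors was called in any mutant line or between the 8-week control groups, and 1 of them, Crhbp, a protein that binds the hormone-releasing factor CRH, had an unadjusted p under 0.05, in the P209L line. Between controls of 3 and 8 weeks, 9 were called lower and 1 higher at 3 weeks, 10 of 16, where 36.1% of all genes were called. The count was 13 without KO control 1, where 8186 of 16285 genes were called. It fell without P209L control 2, which leaves 1 control of 3 weeks, as did the count over all genes. Nr3c1, the glucocorticoid receptor itself, was lower at 3 weeks by a difference of -1.297 on the log2 scale (SE 0.162, limma adjusted p = 6.71e-05), and the coregulators Ncoa1 and Ncor1 differed by -1.33 and -1.03. The list's median was -0.59, beside -0.12 over all genes.

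Among 20 tested further glucocorticoid-induced genes, 8 were called lower and 3 higher at 3 weeks. Over all genes 24.8% were called lower and 36.1% in either direction. The 11 calls became 13 without KO control 1, beside 8186 of 16285 genes. They became fewer without P209L control 2, which leaves 1 control of 3 weeks, as did the calls over all genes. Pdk4, a kinase that restrains pyruvate oxidation, was lower at 3 weeks with a difference of -1.11 (SE 0.129, limma adjusted p = 3.94e-05), and Arrdc3 and Nedd9 differed by -0.75 and -0.77. None of the 20 was called in a mutant line (limma), and 1, Dusp1, had an unadjusted p under 0.05. The gene with the smallest p was Pdk4 in the KO line (0.19), Dusp1, a MAP kinase phosphatase and immediate-early gene, in the R206W line (0.67), and Angptl4 in the P209L line (-0.63).

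Lists that border on these targets were counted in the same way. Their age counts stand beside 24.8% of all genes called lower and 36.1% called in either direction. Of 13 tested paralogs of the members, 3 were called lower and 1 higher at 3 weeks: Tsc22d4 differed by 0.59, Tsc22d2 by -0.85 and Cdkn1b, the inhibitor p27, by -0.45. Of 14 circadian genes 8 were called lower and none higher, with Bhlhe41 at -1.23, Hlf at -1.07 and Clock at -0.88. Of 13 immediate-early genes 5 were called lower and 1 higher, with Arc at -1.86, Egr3 at -1.71 and Npas4 at 0.91.

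Of 10 p53 targets, the list to which Cdkn1a also belongs by its regulation, 2 were called lower and 3 higher, with Ccng1 at -0.64 and the death effectors Bax and Bbc3 both at 0.69. Of 11 NF-kB genes 2 were called lower and none higher, Tnfaip3 at -0.59 and Vcam1 at -0.50, where 36.1% of all genes were called. Without KO control 1 the calls between ages were 6 paralogs, 11 circadian genes, 7 immediate-early genes, 8 p53 targets and 2 NF-kB genes. Over all genes 8186 of 16285 were called in that fit. Without P209L control 2, which leaves 1 control of 3 weeks, the counts of all these lists fell, as did that over all genes. In the mutant lines and between the 8-week control groups no gene of these 5 lists was called (limma). At an unadjusted p under 0.05 no list held more than 3 genes in any of these comparisons. There were 3 of 13 paralogs in KO and 3 of 13 in P209L mice, beside 4.08% and 7.46% of all genes. In R206W mice there were 3 of 13 immediate-early genes, beside 2.19% of all genes. All 13 of these lay above 0 in R206W mice, with a median of 0.45 beside 0.01 over all genes. The smallest adjusted p among the 5 lists in a mutant line was 0.0844 (limma), for the p21 paralog Cdkn1c, which differed by -0.89 between P209L mice and controls.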

How the data were processed

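Total RNA of dissected, frozen cortex was sequenced from stranded libraries (TruSeq Stranded Total RNA) of 17 mice. Expression was deposited by the authors as TPM, 1 column a mouse and 1 entry a gene symbol, and the submitters' processing notes name Trim Galore, STAR 2.7.1a, GATK 4.0.4.0, RSEM and mm10 without the role of each. The annotation and the use of strand are not given in the sources used here. TPM makes each gene a share of its library, so abundant transcripts, such as mitochondrial ones, can lower all others. Each library adds up to 1000000, and depth is unknown, so errors rest on the spread between mice alone.

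The table had 55573 entries, and 120 repeats of a symbol were summed, none of them a member. Genes with a mean of at least 1 TPM (16265, all 10 members among them) were analysed as log2(TPM + 1), which understates the change of low genes. The 6 group means were estimated by limma 3.58.1 under R 4.3.3 (eBayes with trend), and each gene had 1 residual spread over all groups. Tests were two-sided and adjusted by Benjamini-Hochberg over all tested genes. Mutants were compared with their littermates, these effects with each other, R206W controls with KO controls, and the P209L controls of 3 weeks with the averaged controls of 8 weeks. The fit was tested on simulated data. Correlations were tested by 100000 random permutations within groups, many of them repeats, because 3 mice a group allow few distinct orders. The motif search used RefSeq promoter sequences (GRCm38.p6), and 98.3% of symbols were found in GENCODE M21 (GRCm38).

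The 10 members, the further lists and the tests were chosen with earlier results of these data known. All members are named. Of each further list, up to 3 called genes with the smallest p per contrast, or the 1 with the smallest p, are named, and 5 genes with a mean of at least 5 TPM by likeness. The labels do not say whether littermates of a group came from separate litters. Each limma comparison of the members was recomputed with a pseudocount of 0.5 or 0.1, and without the filter or with one at 5 TPM. It was also recomputed after quantile normalization, after scaling by size factors and without mitochondrial-encoded genes. Further fits used only the groups compared, a replicate block, robust eBayes or sample weights, or left out each mouse of the groups compared. The age comparison was also made with both 3-week groups against the 4 groups of 8 weeks. The Fkbp5 correlations were recomputed only with size factors and leaving out each mouse of 8 weeks. The other correlations, the residual SD and the likeness have no alternatives beyond those stated with them.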

Additional observations from a re-analysis of the deposited data

Results flagged for a closer look

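KO control 1 lay far from the other 5 of the 6 controls of 8 weeks for 2 members. Per1 was at 36.67 TPM in it and at 62.3 to 72.9 TPM in the others, a gap of 0.707 of the whole range, where 0.625 is the limit for 6 samples. Errfi1 was at 14.19 TPM in it and at 20.8 to 22.8 TPM in the others, a gap of 0.77 of the range. Chance flags about 1 in 20 such groups, and 10 genes were looked at. The same library had the highest share of mitochondrial transcripts, 20.1%, and the lowest size factor, 0.792. The part of these in the 2 values was not tested.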

How the results depend on the processing

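No member was called between a mutant group and its controls, or between the 8-week control groups, under any alternative but sample weights, where 9 members were called lower in KO mice. Sample weights also called 9 members by age, against 5, and 1 member (lower) for the KO effect minus the P209L effect. With these weights the calls over all genes also grew, from 1 to 2156 of 16265 in KO, from 5876 to 9471 by age and from 8 to 344 for the KO effect minus the P209L effect. Leaving out 1 control of 8 weeks gave 5 to 7 members called by age, beside 5018 to 8186 genes. Fewer members and fewer genes were called without either P209L control, which leaves 1 mouse in that group. Tsc22d3 and Nfkbia were lost without P209L control 1 or 2 and Errfi1 without P209L control 2, while Zbtb16 and Sgk1 were called under every alternative fitted. Of the members not called by age, Sult1a1 passed (higher) in 10 of 20 alternatives, size factors and quantile normalization among them. With size factors 7180 of 16265 genes were called, and with quantile normalization 7232. Fkbp5 passed (lower) in 7 of 20, Per1 in 3 and Cdkn1a in 1. In the Fkbp5 correlations, 0 pairs passed with size factors, and 0 to 3 without 1 mouse. The causes were not tested.

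These differences changed sign, none of them called in the main analysis. With sample weights they were, for KO, -0.35 (Nfkbia) and -0.0023 (Sult1a1), for R206W -0.073 (Cdkn1a), for P209L -0.013 (Per1) and -0.042 (Cdkn1a), and for R206W controls against KO controls -0.11 (Per1), -0.074 (Zbtb16) and -0.077 (Cdkn1a). Sult1a1 in KO was -0.048 with size factors and -0.054 with quantile normalization. Ddit4 by age was 0.085 with size factors, 0.097 with quantile normalization and 0.032 with both 3-week groups against the 4 groups of 8 weeks. With the replicate block P209L gave -0.039 for Per1 and -0.0070 for Cdkn1a. The block called 7 members by age (6 lower, Fkbp5 among them, and Sult1a1 higher), beside 5887 of 16265 genes, and 0 in each genotype comparison. Mice with the same number did not deviate together in all lines (r of 0.117, -0.0581 and 0.331 in the KO line, -0.0283, -0.0297 and -0.113 in the R206W line, 0.0814 and 0.0028 in the P209L line). The control of the same number had the highest r for KO 1, KO 3, P209L 1 and P209L 2, and not for the other mutants checked. The numbers were not taken as a pairing in the main fit.

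Leaving out 1 mouse changed the sign of these differences, given as lowest and highest value. For KO these were Sgk1 -0.39 to 0.081, Per1 -0.58 to 0.15, Nfkbia -0.11 to 0.26, Sult1a1 -0.051 to 0.097 and Ddit4 -0.30 to 0.0998. For R206W these were Zbtb16 -0.43 to 0.020, Cdkn1a -0.23 to 0.32, Nfkbia -0.027 to 0.091 and Errfi1 -0.12 to 0.051. For P209L these were Sgk1 -0.15 to 0.065, Per1 -0.35 to 0.55, Sult1a1 -0.36 to 0.29, Ddit4 -0.0075 to 0.40 and Errfi1 -0.022 to 0.33. For R206W controls against KO controls these were Per1 -0.071 to 0.40 and Zbtb16 -0.14 to 0.48, and by age Ddit4 -0.26 to 0.15.

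With 2 or 3 mice a group and unknown depth, the 95% intervals of the members' genotype differences reach from -1.17 to 1.11. They leave room for changes of up to such a size in the more variable members.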
